A study of Mus musculus with 8 samples.

Results

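Among cells dissociated from the erythroblastic islands of lupus-prone mice, 73 carried both macrophage complement RNA and a large amount of globin RNA. They were chosen from 24942 cell barcodes, each a column of the deposited count table. A column was taken when C1qa, C1qb and C1qc together had at least 5 unique molecular identifiers (UMIs, counted RNA molecules), the globins Hba-a1, Hba-a2, Hbb-bs and Hbb-bt together had at least 200, and globin was under 50% of all its UMIs. These 73 globin-high C1q columns were 5.78% of the 1262 columns with at least 5 C1q UMIs (95% Clopper-Pearson interval 4.56 to 7.22). They were compared with the 1182 globin-low C1q columns, which met the same C1q minimum and had fewer than 200 globin UMIs. The other 7 C1q columns had globin at 50% or more. A column can hold the RNA of more than 1 cell, so "column" is used here in place of "macrophage".

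An erythroblastic island is a central macrophage with maturing red cell precursors attached around it. The macrophage holds its erythroblasts through adhesion molecules such as Vcam1, engulfs the nuclei they expel and aged red cells, and recycles their iron through heme oxygenase and the iron exporter ferroportin. Globin RNA is made by erythroid cells, and C1q, the recognition protein of the classical complement pathway, is made largely by tissue macrophages.

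All the mice were male Sle1.Yaa, a strain that carries the Sle1 lupus susceptibility interval and the Yaa rearrangement, which places a further copy of Tlr7 and neighbouring X genes on the Y chromosome. Mice with a human TLR8 transgene, labelled anemic, gave 2 bone marrow and 2 spleen libraries. Mice without it, labelled non-anemic, gave 3 bone marrow libraries and 1 spleen library. The labels give no age, no promoter for the transgene and no number of animals per library, and the human TLR8 RNA was not analysed here. Islands were enriched on albumin gradients and taken apart with EDTA and gentle mechanical force before droplet capture.

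The count table pools the libraries and does not name them, so no genotype or tissue could be compared and no p-value is given. Its column order falls into 8 stretches of sorted barcodes, the same number as the libraries. Each stretch was treated as 1 unnamed library. The stretches held 6195876 to 48442321 UMIs. No column had fewer than 500 UMIs or more than 20% mitochondrial RNA. There were 287 barcodes found in more than 1 stretch, on 1031 columns, 3 of them globin-high. Without the repeated barcodes the globin-high share was 5.66%.

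The genes that define the columns lie in 3 clusters. On GRCm38, C1qb, C1qc and C1qa lie side by side on the minus strand of chromosome 4 (136880129 to 136886187, 136889804 to 136893065 and 136895917 to 136898803). Hba-a1 and Hba-a2 lie on the plus strand of chromosome 11 (32283511 to 32284465 and 32296489 to 32297298). Hbb-bt and Hbb-bs lie on the minus strand of chromosome 7 (103812524 to 103813996 and 103826534 to 103828096). Hba-a1 and Hba-a2 are near-identical copies, as are Hbb-bs and Hbb-bt, so the division of reads within each pair is uncertain and the sums are used below.

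The 120 bases before the RefSeq start of 3 genes are shown because RNA of a globin, of Alas2 (the first enzyme of erythroid heme synthesis) and of C1q was counted in the same columns. Capitals mark AGATAA or its complement TTATCT, the core letters bound by GATA factors, and CACCC or its complement GGGTG, the letters bound by erythroid Klf1 and its relatives. The sequences are from RefSeq on GRCm38.p6, 5′ to 3′ on each gene's strand.
Hbb-bs, chr7:103827929-103828048, minus strand: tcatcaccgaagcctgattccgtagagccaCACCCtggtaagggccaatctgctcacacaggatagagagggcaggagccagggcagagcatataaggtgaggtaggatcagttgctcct
Alas2, chrX:150547297-150547416, plus strand: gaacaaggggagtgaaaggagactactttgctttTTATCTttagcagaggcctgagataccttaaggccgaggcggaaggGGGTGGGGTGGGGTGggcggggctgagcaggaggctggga
C1qb, chr4:136886201-136886320, minus strand: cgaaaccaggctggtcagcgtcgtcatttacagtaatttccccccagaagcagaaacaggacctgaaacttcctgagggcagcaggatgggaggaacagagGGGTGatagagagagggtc
In the 250 bases before the start, on both strands, AGATAA or TTATCT was found in 10.25% of 27025 promoters and in 8 of the 38 erythroid genes with an entry (21.05%). CACCC or GGGTG was found in 51.3% of all promoters, in 25 of those 38 (65.79%) and in 11 of 17 of the island macrophage list (64.71%). AGATAA or TTATCT was in 1 of those 17. A match describes letters only.

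Globin-high columns were unevenly spread over the stretches. In order, stretches 1 to 8 held 1, 0, 0, 2, 17, 6, 46 and 1 of them, among 115, 130, 83, 161, 205, 236, 308 and 24 C1q columns. A count of 0, with 3 columns as its limit, allows a share of up to 2.31% in stretch 2 and 3.61% in stretch 3 (upper Clopper-Pearson bounds 2.80% and 4.35%). Stretch 7 had the highest share, 14.9%, and stretch 5 the next, 8.29%. Together these 2 stretches held 63 of 513 (12.3%, interval 9.57 to 15.4), against 10 of 749 (1.34%) in the other 6. They were also the stretches richest in red cell precursors, since 63.7% of all columns in stretch 5 and 45.4% in stretch 7 had globin at 20% or more, against 8.93% to 29.0% elsewhere. Whether the globin-high share follows from that was not tested. Without stretch 7 the share in all others was 2.83%.

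**Figure D1:**
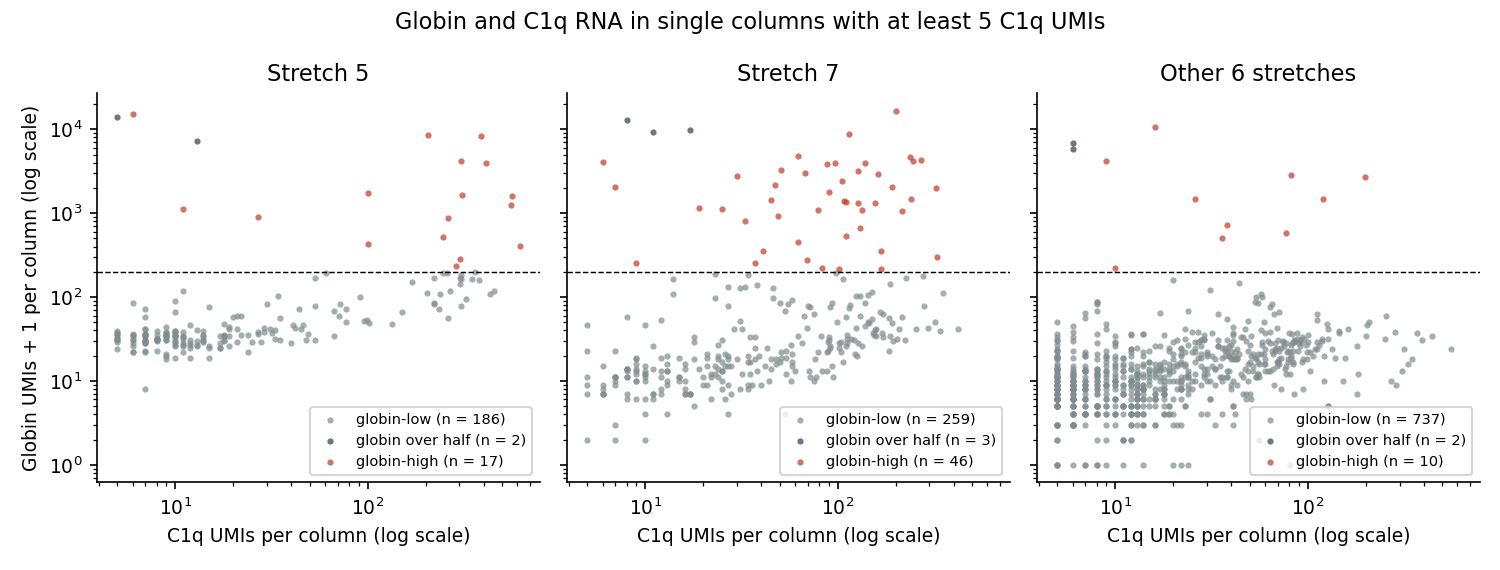
Globin UMIs (with 1 added) against summed C1q UMIs in each column with at least 5 C1q UMIs, both on log axes; each point is 1 column and the dashed line marks the minimum of 200. Red points are the 73 globin-high columns, 17 in stretch 5, 46 in stretch 7 and 10 in the other 6 stretches, and they reach 16428 globin UMIs.

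The cutoff at 200 globin UMIs falls in a thinly filled range rather than in an empty one. The highest C1q column below it had 197 globin UMIs and the lowest above it 216. There were 19 columns with 150 or more but under 200, and 5 with 200 or more but under 250. At the upper limit, the highest member had 49.7% globin and the next column outside had 50.2%. With a minimum of 100 globin UMIs the share was 9.35%, and with C1q sums of 20 or more it was 10.3%.

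Most members had C1q RNA, a value that chose them, well above its minimum. Summed C1q was at 10045 CPM over all members and 8665 CPM in globin-low columns (CPM is a gene's UMIs scaled to a fixed total of all UMIs without globin). The medians of single columns were 14538 CPM in members against 10707 in stretch 5, and 8760 against 10572 in stretch 7. Of the 73 members, 64 (87.7%) had 20 or more C1q UMIs. Columns with mostly globin RNA also held some C1q: of columns with globin at 50% or more, 22.1% in stretch 5 and 15.4% in stretch 7 had any C1q UMI, but 0.144% and 0.640% had 5 or more.

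In 5 members the C1q sum was under 10, and the other macrophage genes were mostly low. The most erythroid of them, in stretch 5, had 6 C1q and 15121 globin UMIs, 2044 UMIs of other erythroid genes, 1 of Vcam1 and 0 of Adgre1, which encodes F4/80. Another, in stretch 4, had 9 C1q and 4224 globin UMIs, with 0 of Vcam1, Hmox1 and Spic. In stretch 7, a column with 7 C1q UMIs had 834 erythroid UMIs, and a column with 6 had 538. The last, also in stretch 7, had 9 C1q UMIs, 51 of Fcgr4 and only 14 erythroid UMIs. These 5 columns held 28.5% of all the members' erythroid UMIs and 14.0% of their globin, so results are also given for the 68 members with C1q sums of 10 or more.

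Globin-high columns were deep. Their median was 16101 UMIs, or 13965 without globin, against 2213.5 UMIs in globin-low columns. In stretch 5 the medians without globin were 21049 and 1407, and in stretch 7 they were 13177 and 3850. Mitochondrial RNA was 6.50% against 0.455% in stretch 5 and 8.73% against 6.92% in stretch 7. To compare like with like, globin-low columns with at least 8464 UMIs without globin, the lower quartile of the members, were used as a second reference. There were 34 of these in stretch 5 and 82 in stretch 7, with mitochondrial medians of 5.31% and 8.37% and median globin of 101 and 39.5 UMIs.

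A doublet caller was also run, and it marked 17 of all columns (0.0682%) and none of the members. That share is too low for the caller to have worked, so its scores are given only as ranks. The median member stood at percentile 75.9 of its stretch's columns in stretch 5 and 74.1 in stretch 7. The deep globin-low columns stood at 75.9 and 67.8. Whether members are droplets with more than 1 cell was not tested.

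The share with much globin was lower in columns of other cell types in the 2 stretches richest in globin-high columns. In stretches 5 and 7, 2 of 295 columns (0.678%, interval 0.0822 to 2.43) of T or NK cells, B cells, plasmacytoid dendritic cells, monocytes and neutrophils met the same globin limits, against 12.3% of C1q columns there. These 295 had a median of 7335 UMIs and a median of 41 globin UMIs. They were picked by marker UMIs with no C1q, and neutrophils by S100a8 and S100a9 at 5% or more of the column, a rule set after the data were seen. The 5% is of all UMIs, globin included, so much globin itself works against passing it. With neutrophils left out, 1 of 164 (0.610%) met the globin limits in stretches 5 and 7. A rule of 20 S100a8 and S100a9 UMIs instead gave 1 of 213 (0.469%) there. Over all stretches that rule gave 12.2% globin-high over the 5 classes, above the 5.78% of C1q columns. In stretches 1, 3 and 4, columns with globin at 50% or more themselves had a median of 11, 15 and 18 S100a8 and S100a9 UMIs, against 0 to 3 elsewhere. Of the 589 columns behind the 12.2%, 580 were in the neutrophil class of that rule. How many of them were erythroid was not tested. The 4 classes without neutrophils had 9 of 2900 (0.310%) over all stretches. By the 5% rule the share over all stretches was 0.278%.

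**Figure D2:**
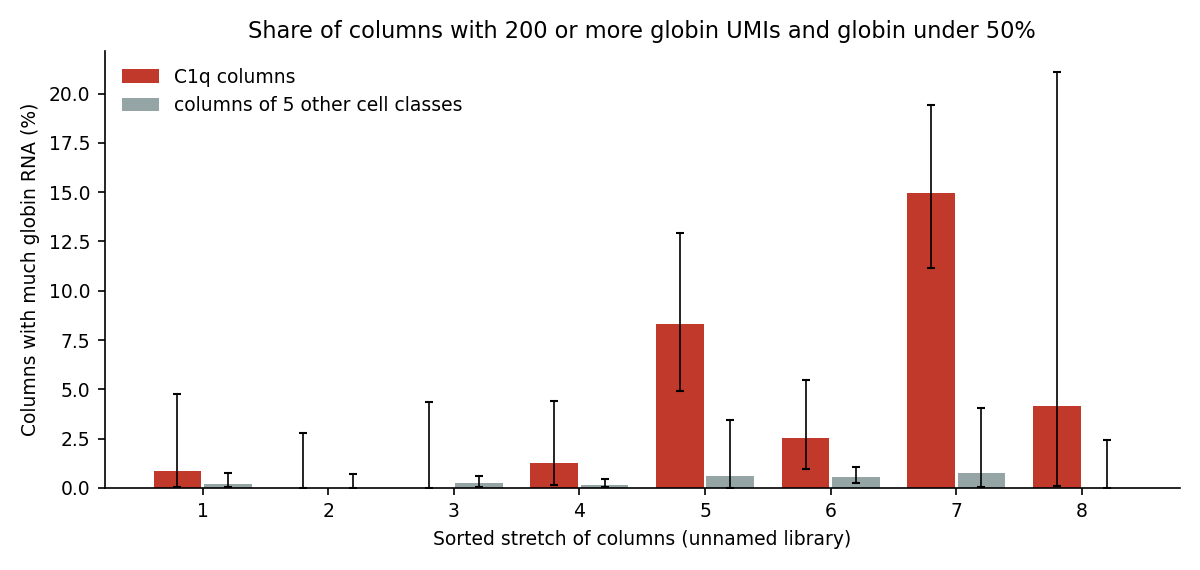
Share of columns (%, from 0) with 200 or more globin UMIs and globin under 50% in each of the 8 stretches, for C1q columns (red) and columns of 5 other cell classes with neutrophils by the 5% rule (grey); bars are shares and lines are 95% Clopper-Pearson intervals, which cover counting error only. C1q columns reached 8.29% in stretch 5 and 14.9% in stretch 7, and the other classes 0.625% and 0.741%.

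The globin itself ranged widely. Members had 216 to 16428 globin UMIs with a median of 1443 and quartiles of 578 and 3144, and globin was a median of 9.76% of the column. Alpha globin made up 35.3% of the members' globin in stretch 5 and 41.5% in stretch 7. In erythroid columns of the same stretches alpha was 29.5% to 33.0% and 33.3% to 37.1%, so the members were somewhat higher in both. Globin-low C1q columns had 33.0% and 39.6%, at the top of the erythroid range in stretch 5 and above it in stretch 7. Hbb-bt, whose reads may be divided uncertainly, was 23.6% and 16.6% of the members' beta globin, within the erythroid range of 21.9% to 26.4% in stretch 5 and below that of 20.1% to 25.7% in stretch 7.

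Erythroid RNA other than the 4 counted globins was high along with globin. Differences are log2 ratios of CPM with 10 added to each, computed in stretches 5 and 7, which had at least 10 columns of both kinds, and averaged. A gene was called when its mean was at least 2-fold and its sign was the same in both. Of 6108 genes compared, 272 (4.45%) were called, of which 210 (3.44% of all) were higher and 62 (1.02%) lower in globin-high columns, and the median over all genes was -0.00. With C1q sums of 10 or more, 115 of 6099 (1.89%) were higher and 58 (0.951%) lower, and 110 and 51 of these were among the first sets. Against deep globin-low columns 227 of 6163 (3.68%) were higher and 81 (1.31%) lower, with 207 and 57 in common.

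Of 50 erythroid genes compared, 46 were higher and 0 lower, with a list median of 2.28. With C1q sums of 10 or more it was 39 of 49 with a median of 1.61. Alas2 had the highest difference of all genes, 4.08, at 359 CPM against 25.9 in stretch 5 and 696 against 15.6 in stretch 7. It was at 0 in 3 of 17 members in stretch 5 and 2 of 46 in stretch 7, but in 169 of 186 and 236 of 259 globin-low columns. Globin-low columns were shallower, and of the deep ones 25 of 34 in stretch 5 and 71 of 82 in stretch 7 were at 0. Most members thus had Alas2 RNA and most globin-low columns had none counted.

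Slc4a1, the anion exchanger band 3, was at 440 CPM against 46.2 in stretch 5 and 707 against 50.7 in stretch 7, a difference of 3.28. Cd24a, a surface glycoprotein of early erythroid cells, differed by 3.88. The sums were uneven: 1 column supplied 56.2% of the members' Slc4a1 UMIs in stretch 5, against 13.3% in stretch 7. With C1q sums of 10 or more the differences were 2.67 for Slc4a1 and 3.19 for Cd24a.

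Car2, a red cell carbonic anhydrase and also among the 10 genes with the highest difference, was at 1394 CPM against 179 in stretch 5, where 1 column gave 67.6% of the members' UMIs, and at 808 against 48.4 in stretch 7. Of the same 10, Apol11b differed by 3.25, Fam213a by 3.11, Fam46c by 3.09 and Trim10 by 2.96. Without the column with most of the gene's UMIs in each class and stretch, 31 of the 45 called genes that the naming rule covers were still called. Of the 210 higher genes, 208 (99.05%) were also at least 2-fold higher in erythroid columns than in deep globin-low columns, which held for 985 (16.1%) of all genes. The exceptions were Pla2g2d, a secreted phospholipase, at 1.52, and Lrp6, a Wnt co-receptor, at 1.14. These 2 were named after their values were seen. The comparisons behind the 208 share globin-low columns, and both set columns high in globin against them, so they are not independent.

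**Figure D3:**
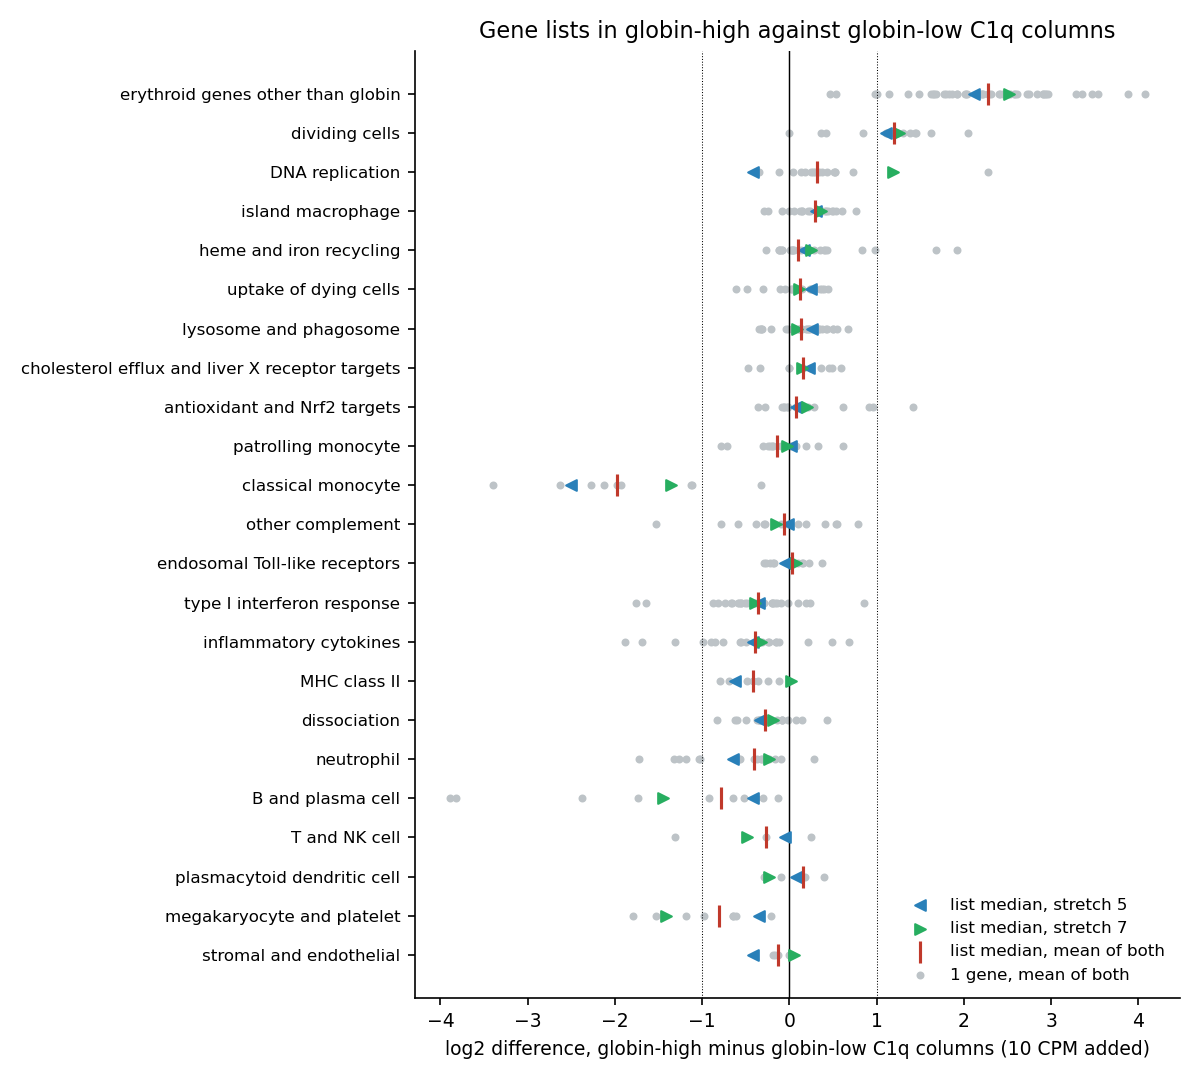
Log2 difference, globin-high minus globin-low C1q columns with 10 CPM added, for 23 gene lists; grey points are single genes, red ticks are list medians of the mean over both stretches, triangles are the list medians in stretch 5 (blue) and stretch 7 (green), and dotted lines mark 2-fold. The erythroid list sits at 2.28 and the classical monocyte list at -1.98, while the island macrophage list sits at 0.30.

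The ratio of other erythroid RNA to globin RNA lay in the range of erythroid columns. Members had 83.6 UMIs of the erythroid list per 1000 globin UMIs in stretch 5 (exact Poisson interval 81.1 to 86.2) and 69.9 in stretch 7 (68.4 to 71.5). With C1q sums of 10 or more the values were 62.0 and 60.6. Erythroid columns with globin at 20 to 60% had 110 and 119, those at 60 to 80% had 61.5 and 62.0, and those at 80% or more had 22.2 and 17.0. The members with a C1q sum of 10 or more thus lay nearest to the middle band in both stretches. Part of their erythroid RNA is at the level that globin-low columns also have. With that level taken off, those members had 37.9 and 49.9, between the middle and the latest band.

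Single genes placed the members differently. In members with a C1q sum of 10 or more, Hemgn, a nuclear erythroid protein, had 0.222 UMIs per 1000 globin in stretch 5. It had 0.679 in stretch 7. The middle band had 0.853 and 1.11, and the latest 0.0326 and 0.0175. The members' value in stretch 5 rested on 8 UMIs (interval 0.0958 to 0.437). With the globin-low level taken off, Hemgn was at 0.080 and 0.627. That level was not taken off the other single genes. Bpgm, which makes the 2,3-bisphosphoglycerate of mature red cells, had 2.47 and 1.04 in those members, against 1.47 and 0.709 in the middle band and 2.39 and 1.38 in the latest. Car2 had 4.36 and 3.92, between 7.49 and 5.59 in the middle band and 1.72 and 1.19 in the latest. Alas2, at 2.19 and 4.06, was within the range of the erythroid bands in stretch 5 (2.05 to 2.78) and above it in stretch 7 (1.96 to 3.62). The erythroid regulators Klf1 and Gata1 were counted at few UMIs in those members. Klf1 had 4 UMIs in stretch 5 and 37 in stretch 7, or 0.111 and 0.369 per 1000 globin against 0.245 and 0.282 in the middle band. Gata1 had 4 and 15, or 0.111 and 0.150 against 0.0704 and 0.0910.

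**Figure D4:**
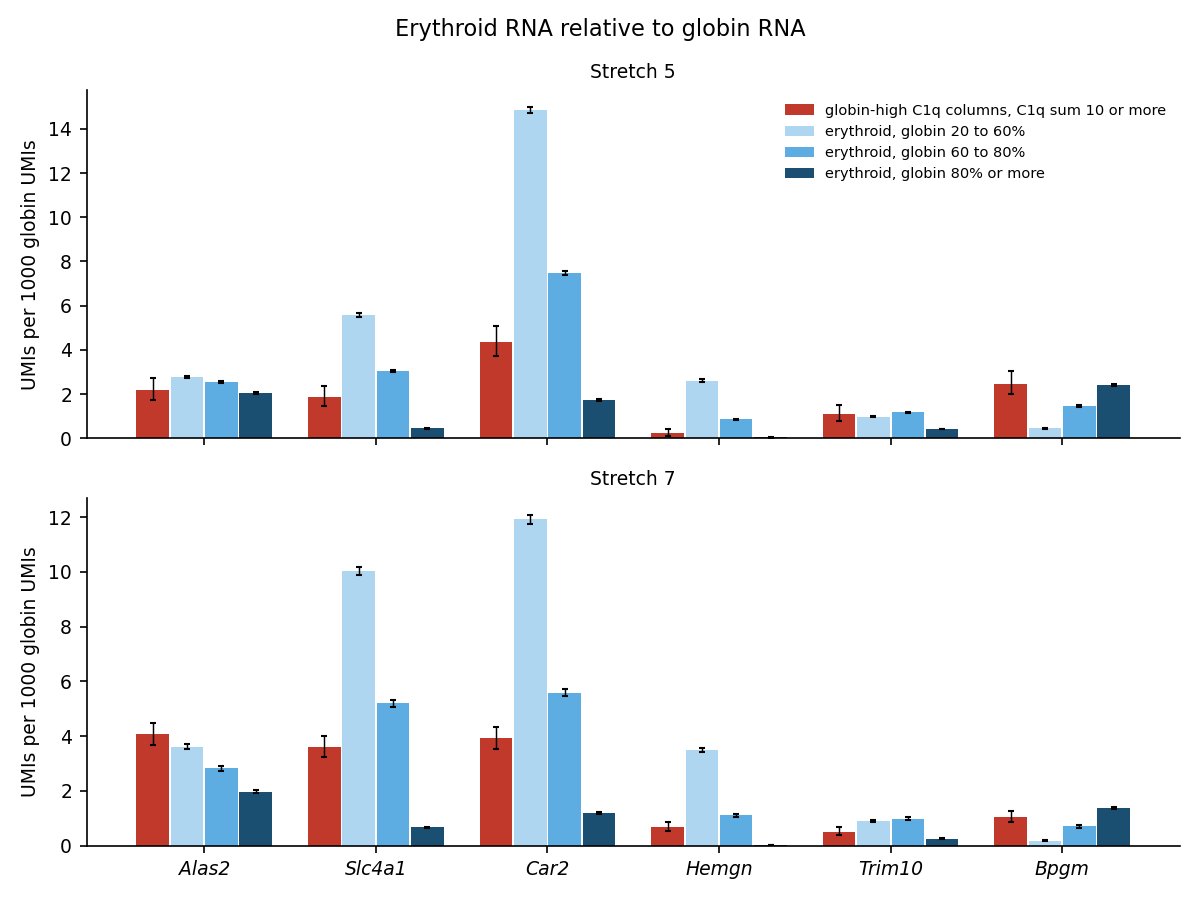
UMIs of 6 erythroid genes per 1000 globin UMIs in stretch 5 (top) and stretch 7 (bottom), for globin-high C1q columns with a C1q sum of 10 or more (red) and erythroid columns in 3 bands of globin share (blues); lines are exact Poisson 95% intervals, counting error only. Car2 in the red bars is at 4.36 and 3.92, between the middle and latest bands, and Bpgm at 2.47 and 1.04 is above the middle band.

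Single members spread over most of the erythroid range. Their erythroid UMIs per 1000 globin ran from 12.7 to 461, with a median of 58.3 and quartiles of 25.03 and 156. In 2069 erythroid columns of stretches 5 and 7 the median was 67.1, and from the 5th to the 95th percentile the values ran from 13.5 to 189. Of the members, 56 were inside that range, 15 above and 2 below. Across the 73 columns, which share libraries and differ in depth, globin UMIs had a Spearman correlation of 0.518 with erythroid UMIs, 0.065 with C1q UMIs and 0.291 with UMIs without globin.

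The members were also described in 3 bands of globin UMIs, the value that chose them. A ratio to globin falls with globin wherever part of the erythroid RNA is at a level that globin-low columns also have. The 25 members with under 1000 globin UMIs had 6870 CPM of the erythroid list and 180 UMIs of it per 1000 globin. The 28 with 1000 or more but under 3000 had 11665 and 104, and the 20 with 3000 or more had 19541 and 51.9. Among members with C1q sums of 10 or more the 3 bands had 7061, 10293 and 11664 CPM, and 183, 90.9 and 34.2 per 1000 globin. C1q over all members was at 11289, 9763 and 9277 CPM in these bands, and Hmox1 at 3743, 3038 and 2337. With C1q sums of 10 or more, C1q was at 11652, 10320 and 10314 CPM, level between the upper bands. Hmox1 was then at 3870, 3162 and 2582. Other macrophage genes, over all members, did not fall steadily. Vcam1 was at 3340, 2424 and 2744 CPM, Fcgr4 at 2641, 1741 and 2549, and Cd5l at 2041, 2203 and 1623. Spic was at 656, 613 and 705, and Slc40a1 at 709, 849 and 699.

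**Figure D5:**
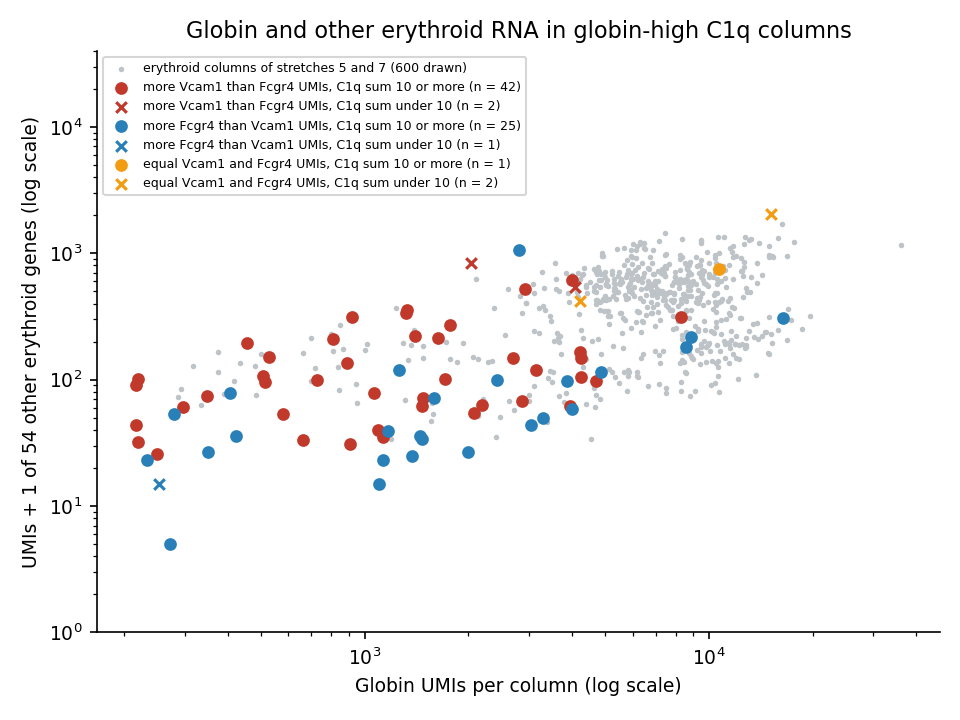
UMIs of 54 other erythroid genes (with 1 added) against globin UMIs per column, both on log axes, for the 73 globin-high C1q columns, coloured by whether Vcam1 or Fcgr4 had more UMIs, with crosses for C1q sums under 10, and for 600 erythroid columns of stretches 5 and 7 drawn at random (grey). Over all members the summed values for more Fcgr4 and more Vcam1 are 38.9 and 92.7 erythroid UMIs per 1000 globin.

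Cell division genes were higher in part of the members. Of 17 genes of mitosis compared, 13 were higher and 0 lower, with a median of 1.20, but with C1q sums of 10 or more only 3 of 16, with a median of 0.76. Mki67, a marker of cycling cells, differed by 2.04, at 244 CPM against 50.7 in stretch 5 and 306 against 68.0 in stretch 7. A single column gave 68.2% of the members' Mki67 UMIs in stretch 5 and 31.1% in stretch 7, and 4 of 17 and 31 of 46 members had none. Top2a, the topoisomerase of dividing cells, differed by 1.30, or by 0.76 with C1q sums of 10 or more. In these 2 stretches 16 of 63 members had 10 or more UMIs of the list, against 11 of 116 deep globin-low columns.

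DNA replication genes did not share a direction between the stretches. Of 16 compared, 1 was higher, near the 4.45% of all genes called. It was Rrm2, a subunit of ribonucleotide reductase, at 2.28. Without the column with most of its UMIs in each class and stretch, Rrm2 was at 1.19. The list median was -0.42 in stretch 5 and 1.18 in stretch 7. Pcna, the sliding clamp, was at 106 CPM against 120 and at 227 against 191.

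Of 20 island macrophage genes compared, 0 were called in either direction, near the 4.45% of all genes, and the list median was 0.30 beside -0.00 over all genes. Vcam1 was at 2061 CPM against 1030 in stretch 5 and 3277 against 2260 in stretch 7, a difference of 0.76. It had no UMI in 5 of 17 and 12 of 46 members and in 135 of 186 and 131 of 259 globin-low columns, which were shallower. Against deep globin-low columns, where 21 of 34 and 37 of 82 had none, the difference was 0.66. Cd5l, a scavenger-like protein secreted by macrophages, differed by 0.48, Adgre1 by 0.60, Spic, the heme-induced regulator of iron-recycling macrophages, by 0.21, and Mrc1, a mannose receptor, by 0.41.

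Heme and iron recycling genes had 2 calls. With 4.45% of all genes called, that many in a list of this size do not set them apart from other genes. Of 22 compared, Tfrc at 1.68 and Abcg2 at 1.92 were higher and 0 lower, with a median of 0.09. Both are also expressed by erythroid cells, Tfrc as their transferrin receptor and Abcg2 as a porphyrin exporter. With C1q sums of 10 or more neither was called, at 0.84 and 0.76, and without the column with most of its UMIs in each class and stretch Abcg2 was at 0.89. Hmox1, the enzyme that opens heme, was at 2630 CPM (interval 2462 to 2806) against 2090 (1996 to 2188) in stretch 5 and at 3409 against 2878 in stretch 7, a difference of 0.29. Slc40a1, which encodes ferroportin, was at 555 against 431 and 896 against 626, a difference of 0.43. Deep globin-low columns had 1800 CPM of Hmox1 in stretch 5 and 2380 in stretch 7, and 457 and 610 of Slc40a1. The ferritin chains Fth1 and Ftl1 differed by -0.12 and -0.27. With CPM over all UMIs, globin included, the median of all genes shifted to -0.17 and that of this list to -0.07.

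Of genes for taking up and digesting cells, 0 of 17 of uptake (median 0.12), 0 of 30 of the lysosome (0.13) and 0 of 11 of cholesterol efflux (0.16) were called. With 4.45% of all genes called, lists of this size do not set them apart from other genes. Mertk and Axl, receptors for dying cells, differed by 0.36 and 0.45. Ctsb and Ctsd, lysosomal proteases, differed by 0.43 and 0.42, and Apoe, a lipid carrier made by macrophages, by 0.49. Of 15 antioxidant genes Gclm, a subunit of the enzyme that starts glutathione synthesis, was higher at 1.42, at 233 CPM against 74.3 and 194 against 72.1. It stayed higher with C1q sums of 10 or more, at 1.09.

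Complement and Toll-like receptor genes had 1 call between them, near the 4.45% of all genes. Of 15 complement genes outside C1q, Vsig4, a complement receptor of resident macrophages, was lower: members had 0 UMIs in both stretches and globin-low columns 15.8 and 22.5 CPM. None of 11 genes of the endosomal Toll-like receptor list was called, with a median of 0.03. Tlr7 was at 48.9 CPM against 49.5 in stretch 5 and 76.6 against 64.6 in stretch 7. Mouse Tlr8 was at 28.7 against 22.5 and 12.5 against 28.8, opposite in direction, and Tlr13 at 8.62 against 10.1 and 36.0 against 24.2. These sums rest on few UMIs: in stretch 7, 24 of 46 members had no Tlr7 UMI and 41 had no Tlr8 UMI.

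Among the 62 lower genes were 8 of classical monocytes, the circulating Ly6c2 cells. Of 9 such genes compared, 8 were lower and 0 higher, with a median of -1.98, and with C1q sums of 10 or more 7 of 9 with a median of -2.01. Plac8 was at 14.4 CPM against 500 in stretch 5 and 1.56 against 51.3 in stretch 7, a difference of -3.40. Ly6c2 itself differed by -2.64 and Chil3, a chitinase-like protein, by -2.12. Without the column with most of the gene's UMIs in each class and stretch, Plac8 was at -2.28, Ly6c2 at -1.47 and Chil3, no longer called, at -0.49. Also among the 10 lowest were S100a6 at -2.63, Saa3, an acute phase protein, at -2.54 (-1.06 without its top columns), Ly6a at -2.39, Ms4a4c at -2.33, S100a4 at -2.27 and Lsp1 at -2.15. The summed monocyte list was 31.6 CPM in members against 1030 in stretch 5 and 32.8 against 248 in stretch 7. Against deep columns the list median was -2.33.

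The patrolling monocyte list had a median of -0.14, against -1.98 for the classical list. Of its 14 genes compared 0 were called, near the 4.45% of all genes. Fcgr4, an IgG Fc receptor, was at 2452 CPM against 2625 and 2341 against 2868, and Cd300e at 477 against 480 and 421 against 453. MHC class II genes were lower in stretch 5 (median -0.62) and level in stretch 7 (0.01), with none of 7 called. Of 31 interferon response genes Cxcl10 at -1.76 and Ifitm3 at -1.64 were lower, and Isg15, a ubiquitin-like protein induced by interferon, was at 0.19. Of 21 inflammatory genes the chemokines Cxcl2, Ccl9 and Ccl5 were lower, at -1.89, -1.69 and -1.32, though Ccl5 was at -0.88 without its top columns. Among 20 genes induced by tissue dissociation none was called, with a median of -0.28. With 4.45% of all genes called, lists of these sizes with 0 calls are not set apart from other genes.

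Markers of further cell types differed from list to list. Of 17 neutrophil genes 6 were lower, among them Lyz2, lysozyme, at -1.72. S100a8 was at -1.26 and S100a9 at -1.33, but without the column with most of each gene's UMIs in each class and stretch they were at -0.70 and -0.80, neither called, and Lyz2 at -1.65. Of 10 B and plasma cell genes 4 were lower, Igkc at -3.89 and Ighg2c at -3.82 among them, but 1 globin-low column in stretch 7 gave 99.3% of the Igkc UMIs there, and with C1q sums of 10 or more 0 of 8 were lower. Jchain, the joining chain of secreted antibody, went from -2.37 to -0.34. Of 8 megakaryocyte genes 3 were lower, beside 1.02% of all genes. Pf4, a platelet chemokine, was at -1.79, or -1.15 without its top columns. Ppbp at -1.53 and Itga2b at -1.19 were no longer called without theirs, at -0.78 and -0.64. T and NK cell genes had 3 compared and 1 lower (Ccl5). Of 5 plasmacytoid dendritic and 5 stromal genes 0 were called, near the 4.45% of all genes, with medians of 0.15 and -0.14.

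The globin-high share was higher among C1q columns with more Vcam1 than Fcgr4 UMIs than among those with more Fcgr4, in both stretches compared. The shares over all stretches were 44 of 393 (11.2%, interval 8.25 to 14.7) and 26 of 655 (3.97%, 2.61 to 5.76), and 3 of 214 with equal counts. Among deep columns they were 32 of 110 (29.1%) and 21 of 152 (13.8%). Stretch 5 had 7 of 17 against 8 of 31 deep columns, and stretch 7 had 23 of 56 against 13 of 63, and the order was the same at all depths (8 of 40 against 8 of 121, and 29 of 125 against 17 of 173). These intervals cover counting error only.

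The globin of the 2 kinds came with different amounts of other erythroid RNA in stretch 7. Members with more Vcam1 had a median of 154 erythroid UMIs per 1000 globin there, with quartiles of 35.7 and 258 over 29 columns. Members with more Fcgr4 had a median of 23.3, with quartiles of 14.7 and 32.6 over 17. In stretch 5 the medians were 94.0 and 88.7 over 8 columns each. The 2 kinds overlapped in both stretches, and median UMIs without globin in stretch 7 were 11887 and 14733. Median globin there was 1315 UMIs with more Vcam1 and 2424 with more Fcgr4. Whether that accounts for the unlike ratios was not tested. Summed over columns, the ratios in stretch 7 were 107 and 38.7. With the level of deep globin-low columns of the same kind taken off, they were 90.0 and 33.9, and 47.4 and 20.8 in stretch 5.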

How the data were processed

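Single cells were captured with 10x Genomics v3.1 chemistry, per the labels' protocols. Cell Ranger 5.0.0, Seurat 3.1.5 and mm10 are named in the submitters' processing notes. What the authors deposited is a single matrix of whole-number UMI counts (19669 genes by 24942 columns) without library names. Members, gene lists and tests were chosen with earlier results of these data known. Globin was left out of CPM totals. Genes with at least 20 CPM in either class were compared, except C1q and globin genes. Named genes were 18 fixed ones, the 10 highest and 10 lowest apart from antigen receptor genes, and up to 4 per list. Clopper-Pearson and exact Poisson intervals cover counting error only, and UMIs of 1 column are not replicates. Doublet scores came from Scrublet in scanpy 1.11.5. Python 3.11.15, numpy 2.4.6 and scipy 1.17.1 were used, and the comparison was tested on simulated data. The alternatives are given in the closing section. Promoter sequences came from RefSeq (GRCm38.p6), coordinates from GENCODE M21. Some named genes are not reported here.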

Additional observations from a re-analysis of the deposited data

How the results depend on the processing

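No paired analysis was possible because the columns carry no library names, and no result comes from a test. The share of C1q columns with much globin, 5.78%, was 9.35% with a globin minimum of 100 UMIs, and 7.38% and 10.3% with C1q sums of at least 10 and 20. Leaving out each stretch gave 2.83% to 6.53%. The share in other cell types, 12.2% by the first neutrophil rule, was 6.74% with globin under 30%, 0.278% by the 5% rule and 7.54% to 16.3% with a stretch left out. With neutrophils left out it was 0.310%. The erythroid list median, 2.28, was 1.98 at 100 UMIs, 1.61 and 1.67 at C1q sums of 10 and 20, 1.72 with globin under 30%, 2.97 with 1 CPM added, 1.96 without the 6% highest doublet scores and 1.64 without the most erythroid column of each stretch. Erythroid UMIs per 1000 globin, 73.7 over all members, were 61.3, 61.0, 61.9 and 61.1 with C1q sums of 10 and 20, without those doublet scores and without those columns. The 210 higher genes became 115 and 128 at C1q sums of 10 and 20, 131 with globin under 30% and 117 without those columns, and 209 to 288 with a stretch left out. The 62 lower genes became 174 with 1 CPM added, 175 with UMIs pooled over all columns, 60 to 78 without 1 of the stretches other than 7, and 199 without stretch 7. The macrophage list median, 0.30, was 0.51 and 0.34 at 100 and 500 globin UMIs, 0.11 over all UMIs, 0.36 at 50 CPM, 0.21 with no minimum level, 0.59 pooled, 0.25 against deep columns, 0.23 at C1q sums of 20 and 0.30 to 0.37 with a stretch left out. The heme and iron list median, 0.094, was 0.29 and 0.19 at 100 and 500 globin UMIs, 0.50 pooled, 0.17 without the doublet scores, 0.17 without those columns, 0.094 to 0.25 with a stretch left out, and reversed to -0.069 over all UMIs, whose totals include globin. For the others the cause was not tested. C1q sums of 20, repeated barcodes, the most erythroid columns, each gene's top columns and the 5% rule were chosen after seeing the data. Without each gene's top columns 14 of 45 called genes lost the call. Over 109 named genes, no called direction reversed in any alternative run. The runs with a stretch left out could not reverse one, since a called gene has 1 sign in stretches 5 and 7. For gene differences and list medians, leaving out any other stretch changes only which genes are compared. With stretch 5 or 7 left out, the same-sign rule is met by the 1 stretch that remains. Few UMIs limit the Toll-like receptor and Vsig4 values.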

Other observations

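The 7 C1q columns with globin at 50% or more had 5741 to 14108 globin UMIs and C1q sums of 5 to 17, and globin was 50.2% to 91.0% of their UMIs. Their summed C1q was 2282 CPM over UMIs without globin, against 10045 in the globin-high columns. A further 8 columns with a C1q sum of 3 or 4 met both globin limits.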
